A study of Sus scrofa with 42 samples.

Results

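The transcriptomes of 2-cell pig embryos were compared between 2 ways of starting development, fertilization in vitro (IVF) and activation without sperm, or parthenogenetic activation (PA). The members were the 12 blastomeres labelled 2-cell, 6 from 3 IVF embryos and 6 from 3 PA embryos, among 42 single cells of 20 embryos in the series. Both blastomeres of every embryo were sequenced, so their FPKM values (fragments per kilobase of gene, scaled to the mapped reads of a cell) were averaged and the embryo was the replicate, with n = 3 on each side. IVF oocytes were incubated with semen, whereas PA oocytes received electric pulses followed by 6-dimethylaminopurine and cytochalasin B, which keep the second set of maternal chromosomes in the egg. All oocytes came from slaughterhouse gilts and were matured in vitro, and all embryos were cultured in the same medium, PZM-3, before collection at 27 h and manual separation of the blastomeres. The 27 h were counted from the end of incubation with semen for IVF and from the pulses for PA. PA embryos thus differed from IVF embryos in the absence of a sperm, in the pulses and drugs and in this starting point. These cannot be told apart here. Nothing states that embryos of a group came from separate animals or culture rounds, so the p-values measure a spread that may be technical. The exact permutation tests take it from the 2-cell embryos alone, whereas limma pools it over all 8 groups of method and stage.

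A 2-cell embryo lives largely on RNA that the oocyte stored during growth. Such maternal messengers are kept silent with short poly(A) tails, are translated when the tail is lengthened at cytoplasmic polyadenylation elements in the 3' untranslated region, and are removed by deadenylation and decay, while transcription from the embryo's own genome begins in earnest only in later cleavage. A parthenote carries maternal chromosomes only, so genes expressed solely from the paternal copy have no active allele there, and it receives neither sperm RNA nor the sperm centriole.

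The cells had the markers of oocytes and early embryos, which do not tell a 2-cell from a 4-cell blastomere. Of 8 oocyte and early embryo markers 7 were in the table, all were above 0, and their summed level was 971 to 1830 FPKM in IVF blastomeres and 1040 to 1327 FPKM in PA blastomeres. Of 12 cumulus and granulosa cell markers 6 were in the table, with a summed level of 0.286 to 15.9 FPKM in IVF and 0.0253 to 15.4 FPKM in PA, and GJA1, LHCGR and TNFAIP6 were listed at 0 on both sides. Of 10 sperm and testis markers only AKAP4 and PLCZ1 were in the table, and they were listed at 0 in all IVF blastomeres and reached at most 0.441 FPKM in PA blastomeres. Reads on genes, recovered from the steps between FPKM values, ran from 8166835 to 13203669 in IVF and from 10398350 to 14303972 in PA blastomeres.

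For a pair of PA libraries the stage label was not borne out. PA blastomere 1-2 had nearly the same profile as a blastomere labelled 4-cell (PA 4-cell 1-4, Pearson r 0.9985 over genes), as did PA blastomere 2-1 and PA 4-cell 2-1 (r 0.9988), whereas the highest r among the other 859 pairs of cells was 0.908. Their recovered counts differed by 5.79 and 2.15 times the counting variance, against 463 to 962 times between sister blastomeres. Results were therefore also computed without PA blastomeres 1-2 and 2-1, and are given below for counts of genes and for list medians.

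Mitochondrial messengers took a larger share of the summed FPKM in every IVF embryo than in any PA embryo. The 13 mRNAs encoded by mitochondrial DNA, all subunits of the respiratory chain or of ATP synthase, made up 15.6, 28.8 and 22.6% of the summed FPKM in the 3 IVF embryos and 12.7, 11.7 and 14.8% in the 3 PA embryos. The groups did not overlap by embryo, with means of 22.3 ± 6.61% and 13.1 ± 1.58% (SD, n = 3), and the two-sided exact permutation test gave p = 0.1, the smallest p that 3 against 3 allows. Single IVF blastomeres ran from 12.2 to 29.7% and single PA blastomeres from 11.2 to 15.2%, so the lowest IVF cell lay inside the PA range. At the 1-cell stage, collected at 19 h, the shares overlapped, with 3.89, 13.5 and 14.5% in IVF and 10.8, 11.3 and 10.2% in PA.

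By gene, 12 of the 13 mitochondrial mRNAs had a higher mean log2 value in IVF, and in 8 the embryos did not overlap. ND5, a subunit of respiratory complex I, was at 4208, 5839 and 8769 FPKM in IVF and at 2414, 1887 and 3507 FPKM in PA, a log2 difference (IVF minus PA, of log2(FPKM + 1)) of 1.25 ± 0.55 (SE; limma adjusted p = 0.888). CYTB, of complex III, was at 1740.2, 2185 and 3215 FPKM in IVF and at 895, 587 and 1564 FPKM in PA, a difference of 1.30 ± 0.58 (limma adjusted p = 0.888). COX3, of complex IV, was at 1630.5, 4504 and 2129 FPKM against 1107, 982 and 1297 FPKM, a difference of 1.16 ± 0.55 (limma adjusted p = 0.903). In these genes every IVF embryo was above every PA embryo, but none passed the test across genes. ATP6 overlapped, at 6005, 16197 and 8015 FPKM in IVF against 6164, 5067 and 5195 FPKM in PA, and IVF embryo 2 was the highest for ATP6, COX1 and COX3. The median difference of the 13 genes was 1.23 as deposited and −0.02 when each cell was divided by its median ratio over nuclear genes. The share itself is taken within a cell and does not depend on the scaling between cells.

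IVF blastomeres also had more genes above 0. The embryo means were 7222, 7440 and 7743 genes in IVF and 6622, 6846 and 6219 in PA, with no overlap between groups (7468 ± 261 against 6562 ± 318, SD, n = 3, two-sided exact permutation p = 0.1). After the recovered reads of every cell were thinned to 8166835, the depth of the shallowest blastomere, 6837 to 7483 genes were detected in the 6 IVF blastomeres and 5678 to 6704 in the 6 PA blastomeres. The summed FPKM differed in the same direction, at 150230 ± 7588 in IVF and 122014 ± 11776 in PA (exact permutation p = 0.1), but the sum over nuclear genes overlapped, at 107850 ± 13342 and 101434 ± 7460 (exact permutation p = 0.5).

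**Figure D1:**
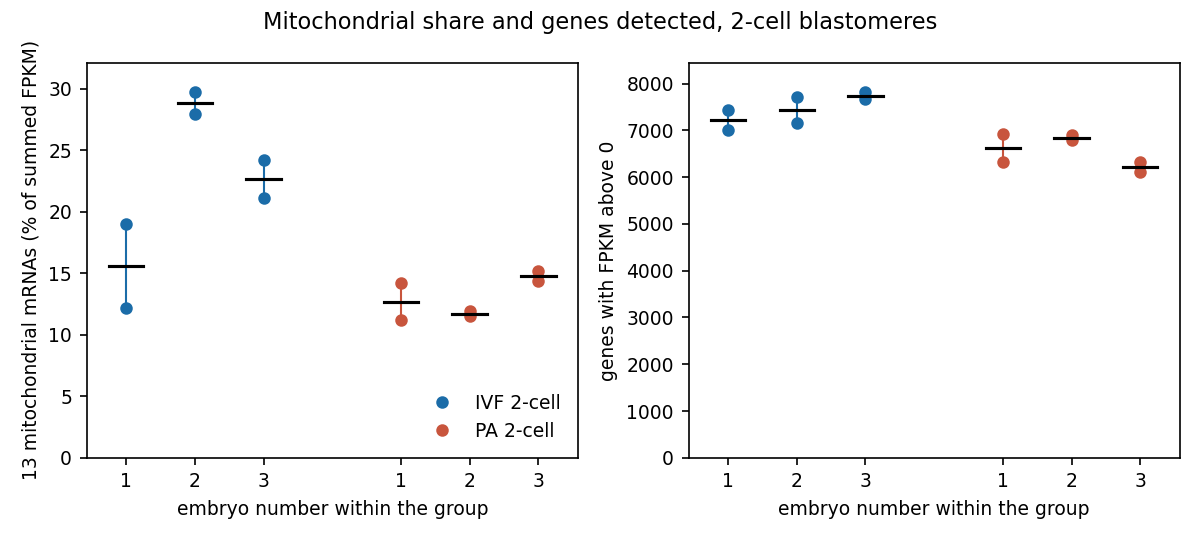
Share of the 13 mitochondrial mRNAs in the summed FPKM (left, %) and number of genes above 0 FPKM (right) in each 2-cell blastomere, by embryo number within its group. Points are blastomeres, lines join sisters and black bars are embryo means: the IVF means, 15.6 to 28.8% and 7222 to 7743 genes, all lay above the PA means.

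With both methods pooled, whole profiles lay slightly farther apart between the methods than within them, but this did not hold for PA alone. Blastomeres of different PA embryos correlated at a median of 0.635, below the median of 0.679 between methods. Over the 8116 genes with at least 1 FPKM in at least 3 of the 42 cells, the mean distance between embryos was 129 between methods and 123 within a method (exact permutation p = 0.1, the smallest that the 10 splits allow). Blastomeres of different IVF embryos correlated at 0.710 to 0.787 over genes, those of different PA embryos at 0.618 to 0.660 and those of different methods at 0.646 to 0.709. All pairs of IVF embryos were thus above all pairs of PA embryos. Sisters correlated at 0.737 to 0.801 in IVF and at 0.609 to 0.672 in PA, within or close to the range for different embryos of the same method. The PA sister pairs at 0.672 and 0.655 each hold a library whose stage label was not borne out, and the pair at 0.609 holds neither. Several pairs of different PA embryos also hold such a library, and no correlations without these libraries are given here. These correlations share libraries and depth between pairs and are given without a test.

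No gene passed the test of IVF against PA at the 2-cell stage. limma called 0 genes at an adjusted p below 0.05 and a fold of at least 2 (0.0% of 8116 in each direction). At an unadjusted p below 0.05, 366 genes were higher in IVF (4.51%) and 75 were higher in PA (0.924%). Where no gene differs, a share of about 0.05 reaches such a p by definition, both directions together. Counts at an unadjusted p are therefore not lists of differing genes. The median SE of a log2 difference was 0.82, so a gene without a call is not shown to be alike on both sides. The mean of the 1-cell and 2-cell differences also gave 0 calls, with 530 genes (6.53%) higher in IVF and 76 (0.936%) higher in PA at an unadjusted p below 0.05. The test of whether the difference was other at the 2-cell than at the 1-cell stage gave 0 calls, with 134 (1.65%) and 93 genes (1.15%) at an unadjusted p below 0.05. Without PA blastomeres 1-2 and 2-1, 648 genes were higher in IVF and 58 higher in PA at an unadjusted p below 0.05, and 5 genes were called, all higher in IVF, among them C3orf58, TRMT2B, FASLG and ENSSSCG00000037332.

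The smallest adjusted p belonged to TRMT2B, a tRNA methyltransferase of mitochondria, and FASLG, the ligand of the Fas death receptor, both chosen here after their values were seen. TRMT2B was at 4.55, 7.48 and 4.30 FPKM in the IVF embryos and at 0.0138, 0 and 0 FPKM in the PA embryos, a log2 difference of 2.65 ± 0.47 (limma adjusted p = 0.101). FASLG was at 8.23, 3.27 and 5.98 FPKM in IVF and at 0, 0 and 0.0911 FPKM in PA, a difference of 2.66 ± 0.48 (limma adjusted p = 0.101). Both were nearly undetected in PA embryos, and both were among the genes called without the PA libraries named above.

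The values lay higher in IVF for most genes as deposited, and this direction depended on the scaling. The median log2 difference over all genes tested was 0.25, with 64.4% of genes above 0. It was 0.21 after nuclear genes were rescaled to 1 total in every cell, and −0.20, with 35.2% above 0, under median-ratio scaling, where 70 genes were higher in IVF and 227 higher in PA at an unadjusted p below 0.05. A gene's difference is therefore read below against the median of all genes, and a direction is stated for a gene only with its non-overlapping values. Under median-ratio scaling the median depended on level, at 0.0016 below 1 FPKM, −1.30 at 100 to 300 FPKM and −1.15 above 300 FPKM. For abundant genes the median of all genes is thus too high a reference under that scaling. The embryos did not overlap for 1016 genes higher in IVF (12.5%) and 247 genes higher in PA (3.04%) as deposited, for 468 and 1082 genes under median-ratio scaling, and for 1501 and 180 genes without PA blastomeres 1-2 and 2-1. For a gene alike on both sides, 1 of the 20 assignments of 3 against 3 embryos separates them in a given direction. The PA-side share of 3.04% was below 1 in 20. Shares without overlap given below are to be read beside this 1 in 20. For the stricter criterion, all 6 blastomeres of a side above all 6 of the other, the counts were 86 higher in IVF (1.06%) and 27 higher in PA (0.333%).

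Most genes with separated blastomeres were of low level on both sides. Of the 86 genes with separated blastomeres on the IVF side, 68 had a PA mean below 1 FPKM and 3 reached 100 FPKM in IVF. Of the 27 on the PA side, 18 had an IVF mean below 1 FPKM and 6 reached 100 FPKM in PA. By mean level, the share of genes whose embryos did not overlap with PA higher was 3.71% below 1 FPKM, 2.04% from 1 to 10 FPKM, 9.92% from 100 to 300 FPKM and 15.2% above 300 FPKM (7 of 46 genes). The IVF side was also highest above 300 FPKM, at 21.7% (10 genes), and was at 13.5, 12.3 and 10.7% in the other 3 ranges. At the 1-cell stage, 66 of the 86 IVF-side genes (76.7%) had a log2 difference above 0, as did 6 of the 27 PA-side genes (22.2%) and 64.3% of all genes tested.

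**Figure D2:**
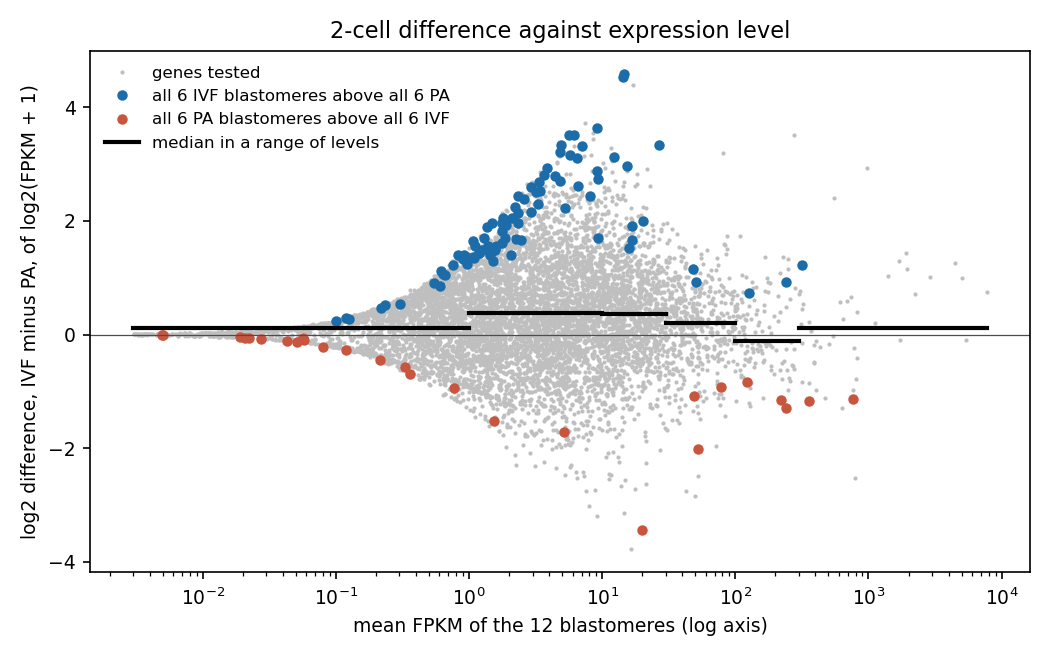
Log2 difference (IVF minus PA) of each gene tested against its mean FPKM over the 12 blastomeres (log axis). Blue and red points are the 86 and 27 genes whose 6 blastomeres on a side all lay above the other 6, and black bars are medians within ranges of level, from −0.11 at 100 to 300 FPKM to 0.38 at 1 to 10 FPKM.

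The 12 genes of smallest unadjusted p among those with separated blastomeres on the IVF side were near 0 in PA embryos. ELP2 (chr6:119885409-119932125), a subunit of the Elongator complex that modifies tRNA, was at 17.4, 25.9 and 42.5 FPKM in IVF embryos and at 0.00487, 0 and 0.774 FPKM in PA embryos. Its log2 difference was 4.52 ± 0.90 (limma adjusted p = 0.194), and it overlaps SLC39A6 on the other strand, which counting without strand cannot tell apart. ELP2 was also higher in IVF at the 1-cell stage, where embryos were at 16.5, 20.7 and 21.1 FPKM in IVF and at 4.82, 0.765 and 11.7 FPKM in PA.

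BTBD9 (chr7:33724156-34089220), a BTB domain protein, was at 34.3, 15.7 and 36.9 FPKM in IVF and at 0.0169, 0.605 and 0.0165 FPKM in PA, a difference of 4.57 ± 1.03 (limma adjusted p = 0.362). INTS2 (chr12:36435812-36494591), a subunit of the Integrator complex that processes small nuclear RNA, was at 7.81, 6.90 and 6.69 FPKM in IVF and at 0.0119, 0.505 and 0.0123 FPKM in PA, a difference of 2.81 ± 0.77 (limma adjusted p = 0.414). RBL1 (chr17:40201086-40279318), the retinoblastoma-like repressor of cell cycle genes, was at 19.8, 4.63 and 9.29 FPKM in IVF and at 0.00267, 0.667 and 0.0140 FPKM in PA, a difference of 3.16 ± 0.83 (limma adjusted p = 0.414). In each of these genes the lowest IVF blastomere, at 4.11 FPKM or more, exceeded the highest PA blastomere, at 1.32 FPKM or less.

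TSLP, which encodes a cytokine, and TANC2, a scaffold protein of synapses, were listed at 0 in all 6 PA blastomeres. TSLP was at 0.936 FPKM in the lowest, 8.37 in the median and 20.02 FPKM in the highest IVF blastomere, and it overlaps WDR36 on the same strand. TANC2 was at 0.0767, 1.43 and 4.08 FPKM by the same measures. The other genes of this rule were ZCCHC7, of an RNA surveillance complex, the deubiquitinase USP13, the secretion GTPase RAB27B, the oxidation resistance gene OXR1, the zinc finger gene ZNF189 and ANKS1B. ZCCHC7, at 22.6, 8.66 and 10.3 FPKM in IVF embryos and 0.378, 0.320 and 0.435 FPKM in PA embryos, had neighbouring blastomeres across the groups, with a lowest IVF cell of 0.964 FPKM and a highest PA cell of 0.857 FPKM. OXR1, at 13.8, 8.21 and 13.9 FPKM in IVF embryos against 1.51, 1.26 and 0.574 FPKM in PA embryos, had the highest level in PA among the 12. Of these 12 genes 10 had a 1-cell difference above 0, beside 64.3% of all genes, the exceptions being USP13 at −0.50 and ZNF189 at −0.34.

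On the PA side the 12 genes chosen in the same way included several abundant messengers with small differences. NUDT4 (chr5:89714010-89728263, named by its position in RefSeq), which hydrolyses inositol pyrophosphates, was at 544, 522 and 371 FPKM in IVF embryos and at 902, 999 and 1219.97 FPKM in PA embryos, a log2 difference of −1.13 ± 0.39 (limma adjusted p = 0.773). GNAI3 (chr4:110527711-110579336), an inhibitory G protein subunit, was at 156, 151 and 115 FPKM in IVF and at 369, 311 and 348 FPKM in PA, a difference of −1.29 ± 0.48 (limma adjusted p = 0.841). YAP1 (chr9:32811231-32925606), the transcriptional coactivator of the Hippo pathway, was at 186, 216 and 263 FPKM in IVF and at 544, 466 and 485 FPKM in PA, a difference of −1.18 ± 0.65 (limma adjusted p = 0.925). The lowest PA blastomere was above the highest IVF blastomere in each, at 818 against 683 FPKM for NUDT4, 257 against 188 FPKM for GNAI3 and 335 against 279 FPKM for YAP1.

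MID1 (chrX:7237938-7421430), a ligase on microtubules, was at 0.0150, 2.70 and 8.54 FPKM in IVF and at 23.1, 38.1 and 46.7 FPKM in PA, a difference of −3.43 ± 0.89 (limma adjusted p = 0.387). CBLB (chr13:153479925-153700111), a ligase that acts on receptor signalling, was at 26.0, 17.5 and 17.1 FPKM in IVF and at 102, 69.6 and 80.0 FPKM in PA, a difference of −2.01 ± 0.95 (limma adjusted p = 0.903). KLHL15, an adaptor of cullin ligases that overlaps EIF2S3 on the other strand, was at 81.1, 150 and 187 FPKM in IVF and at 389, 240 and 266 FPKM in PA. RBPJ, the DNA-binding partner of Notch, EYA1, a coactivator with phosphatase activity, and the kinase STK35 had separated blastomeres with differences of −0.92, −1.08 and −0.84. These 3 genes were at 29.8 to 70.3, 17.3 to 41.9 and 71.3 to 112 FPKM in IVF blastomeres and at 74.8 to 147, 49.2 to 91.4 and 125 to 205 FPKM in PA blastomeres.

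PLEKHD1, PDCD2L and TFAM, a packaging and transcription factor of mitochondrial DNA, rested on few cells. PLEKHD1 was listed at 0 in all IVF blastomeres and ran in PA from 0.00440 FPKM through a median of 0.0161 to 14.8 FPKM, and PDCD2L was listed at 0 in IVF and ran from 0.0247 through 0.0962 to 60.9 FPKM. TFAM was at 0 to 0.0648 FPKM in IVF and at 0.0672 to 2.48 FPKM in PA. The highest cell of all 3 was PA blastomere 1-2, and without that cell and PA 2-1 the log2 differences were −0.51, −0.27 and −0.09, compared with −1.52, −1.72 and −0.58 with them. Under median-ratio scaling the 12 genes of the IVF side had log2 differences of 0.49 to 2.85, beside a median of −0.20 for all genes.

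**Figure D3:**
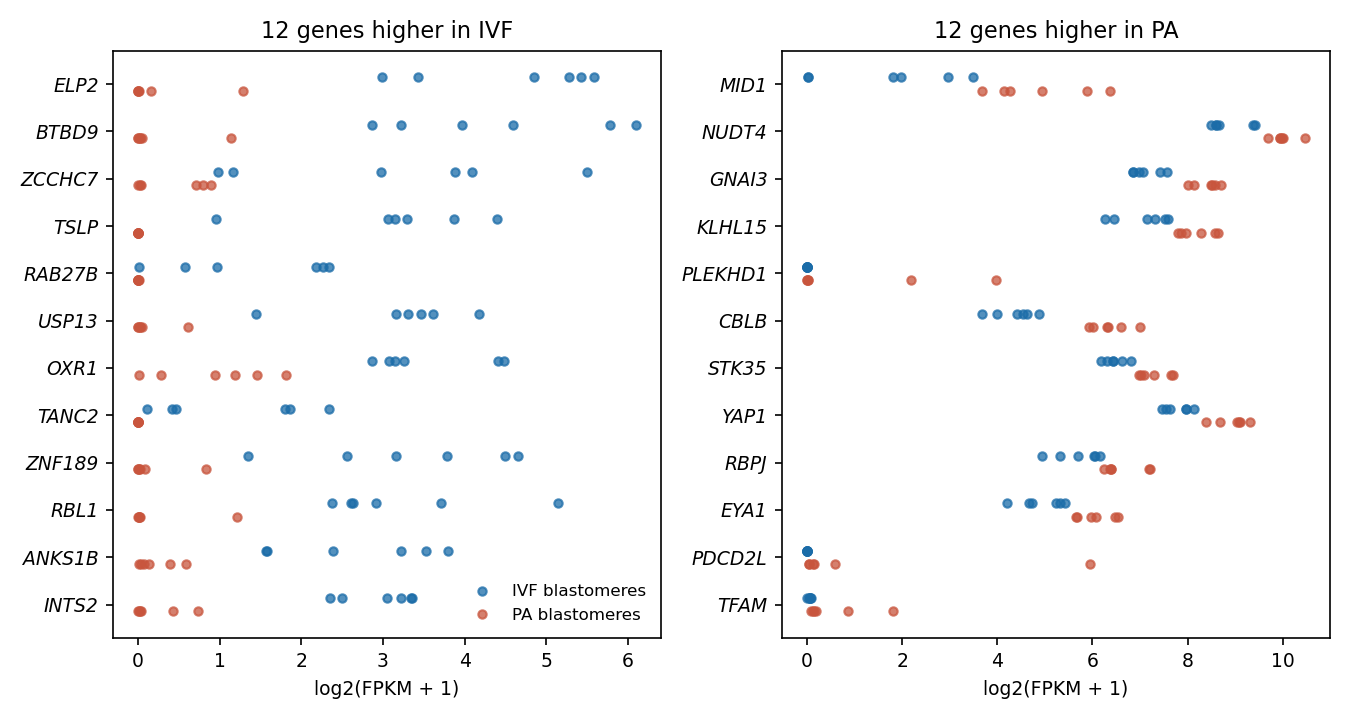
Expression, as log2(FPKM + 1), of the 12 genes of smallest unadjusted p among those with separated blastomeres on the IVF side (left) and on the PA side (right). Each point is 1 of the 6 IVF (blue) or 6 PA (red) blastomeres: on the left PA cells sit near 0, and on the right 9 of the genes are above 1 FPKM in every PA cell, whereas PLEKHD1 and PDCD2L are at 0 in IVF.

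Genes of at least 10 FPKM on the PA side had a longer 3' untranslated region at the median (3'UTR), the stretch after the stop codon that holds most elements controlling stored messengers. Among genes with a mean of at least 10 FPKM, 1623 of 1802 were matched by symbol to RefSeq transcripts of Sscrofa11.1. The share whose embryos did not overlap with PA higher was 2.85% of 386 genes with a 3'UTR of at most 500 bases, 3.00, 3.30 and 4.18% in the next 3 classes of length, and 10.6% of 199 genes with over 4000 bases. On the IVF side the shares were between 10.1 and 13.3% in all 5 classes. The median 3'UTR was 2302 bases for the 69 PA-side genes, 1351 for the 195 IVF-side genes and 1381 for all matched genes. Under median-ratio scaling the PA-side share was 32.4% in the shortest and 43.2% in the longest class, and without the PA libraries named above it was 3.37 and 8.54%. The length was looked at after the values were seen, beside GC content, coding length, 5 motifs and chromosome, and a class of genes is not a replicate, so this is a description.

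**Figure D4:**
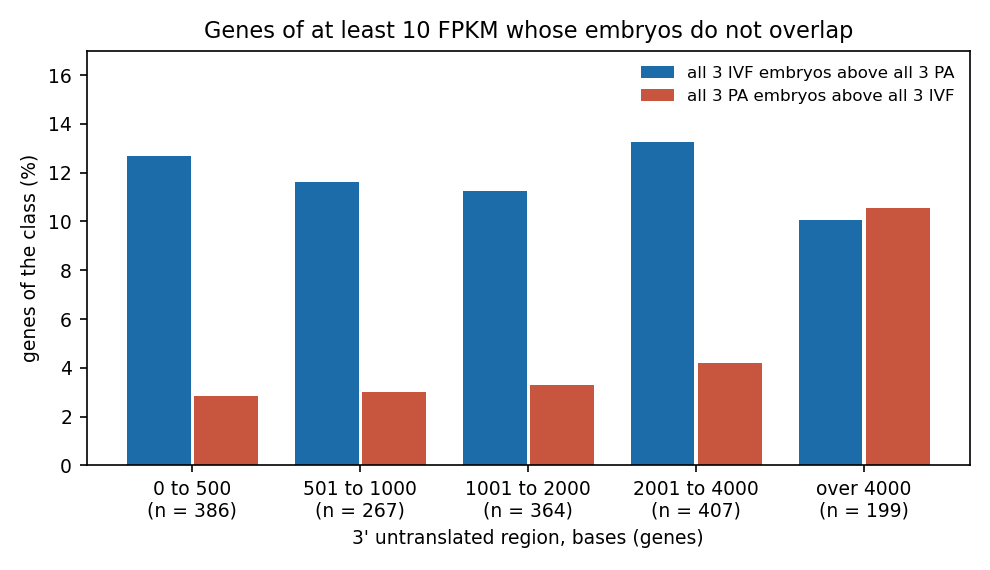
Share of genes with a mean of at least 10 FPKM whose 3 IVF embryos all lay above the 3 PA embryos (blue) or the reverse (red), by 3'UTR length in RefSeq, with the number of genes under each class. The red bars stand between 2.85 and 4.18% in the first 4 classes and at 10.6% in the last, and the blue bars vary between 10.1 and 13.3%.

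The longer form of the cytoplasmic polyadenylation element, TTTTAAT on the transcribed strand, lay in the last 200 bases of 25.4% of the 67 PA-side genes with a sequence there, of 16.0% of the 169 IVF-side genes and of 15.5% of all 1455 matched genes. The 30 bases around the element nearest to the 3' end are shown, with the element in capitals, for PA-side genes described here and for a pair of IVF-side genes, because stored messengers are known to be readenylated through such elements. Of the other 4 motifs searched there, the shorter element, TTTTAT, was at 37.3% on the PA side, 33.7% on the IVF side and 32.6% of all genes, the polyadenylation signal, AATAAA, at 74.6, 74.0 and 73.5%, the AU-rich pentamer, ATTTA, at 46.3, 47.9 and 45.9% and the Pumilio site, TGTANATA with N any base, at 7.46, 13.02 and 10.4%. From 100 FPKM the shorter element was in 4 of 16 PA-side genes and 45 of all 117 genes, and the longer form in 5 of 16 and 22 of 117. A match is no proof of a working element.
NUDT4 (PA side, chr5:89714012-89714041, minus strand): tgggttaggagtttttttTTTTAATtgaaa
GNAI3 (PA side, chr4:110527392-110527421, minus strand): gttagtggattTTTTAATcatagtaggaac
CBLB (PA side, chr13:153699897-153699926, plus strand): ctattttatttTTTTAATgcctttttaaaa
TNPO1 (PA side, chr16:49151734-49151763, plus strand): atagaatacggTTTTAATttttgataagct
MIER3 (PA side, chr16:35990559-35990588, minus strand): tgttgcattgaTTTTAATatttgtacataa
TMEM123 (IVF side, chr9:33084878-33084907, minus strand): tttgtttttctTTTTAATataatgaccaac
TOP1 (IVF side, chr17:43799639-43799668, plus strand): catgaattcccTTTTAATcaactgtaggtt
In these transcripts the element ended 5 bases before the 3' end in NUDT4, 41 in GNAI3, 175 in CBLB and TNPO1, 103 in MIER3, 70 in TMEM123 and 44 in TOP1.

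TNPO1, which carries proteins into the nucleus, and MIER3, a partner of histone deacetylases, were higher in every PA embryo than in any IVF embryo. TNPO1 was at 213, 401 and 284 FPKM in IVF embryos and at 811, 471 and 646 FPKM in PA embryos, a difference of −1.11 ± 0.45 (limma adjusted p = 0.872). MIER3 was at 97.3, 105 and 107 FPKM in IVF and at 204, 121 and 119 FPKM in PA, a difference of −0.47 ± 0.94 (limma adjusted p = 1). Its embryos did not overlap, but its blastomeres did, at 76.7 to 118 FPKM in IVF and 80.8 to 230 FPKM in PA.

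In 22 lists of genes for processes of the early embryo, 0 members were called by limma. As deposited the median log2 difference was above 0 in 19 lists and above the median of all genes, 0.25, in 12. Under median-ratio scaling it was above 0 in 1 list and above the median of all genes, −0.20, in 7. Without PA blastomeres 1-2 and 2-1 it was above 0 in 21 lists, beside a median of 0.40 for all genes. The lists are therefore given with the list's own counts beside the shares for all genes, 12.5% without overlap on the IVF side and 3.04% on the PA side.

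Genes of DNA replication had the highest median, 0.85, with 4 of 38 members tested without overlap on the IVF side and 0 on the PA side, and a median of −0.06 under median-ratio scaling. RPA3, a subunit of the single-strand binding complex, was at 2.94, 3.40 and 2.70 FPKM in IVF and at 0.132, 0.149 and 0.482 FPKM in PA, a difference of 1.69 ± 0.76 (limma adjusted p = 0.896). PCNA, the polymerase clamp and the most abundant of the list, overlapped, at 2539, 1442 and 1122 FPKM in IVF and at 2157, 1456 and 1625 FPKM in PA. The list held both low genes near 0 in PA and abundant genes with like values on both sides.

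Ubiquitin ligases and proteasome regulators, which clear stored proteins, had a median of 0.66, with 13 of 47 members without overlap on the IVF side and 3 on the PA side (−0.24 under median-ratio scaling). The ligase scaffold CUL4A was at 2.99, 3.22 and 2.00 FPKM in IVF and was listed at 0 in every PA blastomere, and the mitotic conjugating enzyme UBE2C was at 8.94, 3.21 and 11.6 FPKM against 2.46, 0.891 and 0.191 FPKM. Centrosome and spindle pole genes, a structure that the sperm centriole seeds in many mammals, had a median of 0.48, with 10 of 38 on the IVF side and 1 on the PA side (−0.29 under median-ratio scaling). The augmin subunit HAUS6 was at 1.25, 4.09 and 1.27 FPKM in IVF and at 0.00629, 0 and 0 FPKM in PA. These examples had low levels, and neither list had a called member. Of the ubiquitin members of at least 100 FPKM, UBE2W and ITCH overlapped, and UBE2D3 did not, at 297, 332 and 315 FPKM in IVF against 196, 206 and 212 FPKM in PA. At an unadjusted limma p below 0.05 the ubiquitin list had 3 members on the IVF side and 2 on the PA side.

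Genes that shorten poly(A) tails and degrade messengers had a median of 0.39, with 8 of 49 without overlap on the IVF side and 1 on the PA side. PARN, a poly(A) nuclease, was at 9.27, 19.2 and 33.8 FPKM in IVF and at 0.294, 8.25 and 0.0462 FPKM in PA, a difference of 3.06 ± 0.91 (limma adjusted p = 0.541). PATL1, which links decapping to deadenylation, was at 13.4, 5.24 and 9.50 FPKM in IVF and at 1.29, 1.49 and 0.645 FPKM in PA, a difference of 2.22 ± 0.85 (limma adjusted p = 0.844). BTG4, the oocyte adaptor of the deadenylase and far more abundant, overlapped, at 922, 634 and 1269 FPKM against 617, 692 and 765 FPKM. The list for tail lengthening, poly(A) binding and storage had a median of 0.28, with 3 of 33 members without overlap on the IVF side and 2 on the PA side.

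Transcription factors of early embryos had the lowest median, −0.45, with 1 of 27 members without overlap on the IVF side and 5 on the PA side. The list holds EYA1, ZNF449 and MIER3, which the study named as lower in IVF on these same samples. EYA1 and MIER3 are among the 5, so the lean toward PA is partly built in. The median stayed below that of all genes under median-ratio scaling, at −0.65, and was −0.07 without the PA libraries named above, where the median of all genes was 0.40. Beside YAP1, TFAP2C, a regulator of trophoblast, was at 0.279, 0.184 and 0.0349 FPKM in IVF and at 11.95, 2.98 and 0.250 FPKM in PA. TFAP2C embryos overlapped. Cell cycle genes had a median of −0.01, with 5 of 41 members without overlap on the IVF side and 3 on the PA side, and a median of 0.29 without those libraries. FBXO43, the inhibitor of the anaphase-promoting complex that holds the egg in arrest, was at 101, 92.3 and 118 FPKM in IVF embryos against 42.3, 54.2 and 27.5 FPKM in PA embryos, and PTTG1, the securin that guards chromatid separation, was at 327, 408 and 247 FPKM against 504, 418 and 439 FPKM.

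Of the stress genes, HSPB1, a small heat shock protein, differed most toward PA. It was at 0.352, 1.99 and 2.90 FPKM in IVF embryos and at 13.96, 19.7 and 14.15 FPKM in PA embryos, a difference of −2.74 ± 0.73 (limma adjusted p = 0.414). The 1-cell difference was −2.29. Its blastomeres overlapped, from 0 to 5.76 FPKM in IVF and from 2.42 to 33.7 FPKM in PA, and the list it belongs to had a median of 0.13 with 2 of 36 members without overlap on each side. The insulin and MAP kinase list had a median of −0.01, 0.13 without the PA libraries named above, with 5 of 39 members without overlap on the IVF side and 3 on the PA side. Its adaptor IRS1 was at 0.0154, 0.348 and 0.00835 FPKM in IVF and at 0.799, 3.62 and 3.71 FPKM in PA, and the receptor IGF1R lay the other way, at 2.52, 1.74 and 0.830 FPKM against 0, 0.0490 and 0.769 FPKM.

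The lists that bear on the missing paternal genome were small at this stage. Of 19 genes imprinted to be expressed from the paternal copy 13 were in the table and 7 were tested, with a median of 0.01 and no member without overlap. PLAGL1, a growth regulator of this class, was at 20.8, 5.03 and 8.25 FPKM in IVF and at 21.9, 7.36 and 31.4 FPKM in PA. Of 14 genes expressed from the maternal copy 5 were tested, with a median of 0.83, and PPP1R9A was the member without overlap, at 2.25, 1.09 and 3.37 FPKM in IVF embryos against 0.238, 0.00433 and 0.00167 FPKM in PA embryos. Sperm and testis transcripts had 5 members tested of 32 listed, a median of 0.12 and none without overlap.

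**Figure D5:**
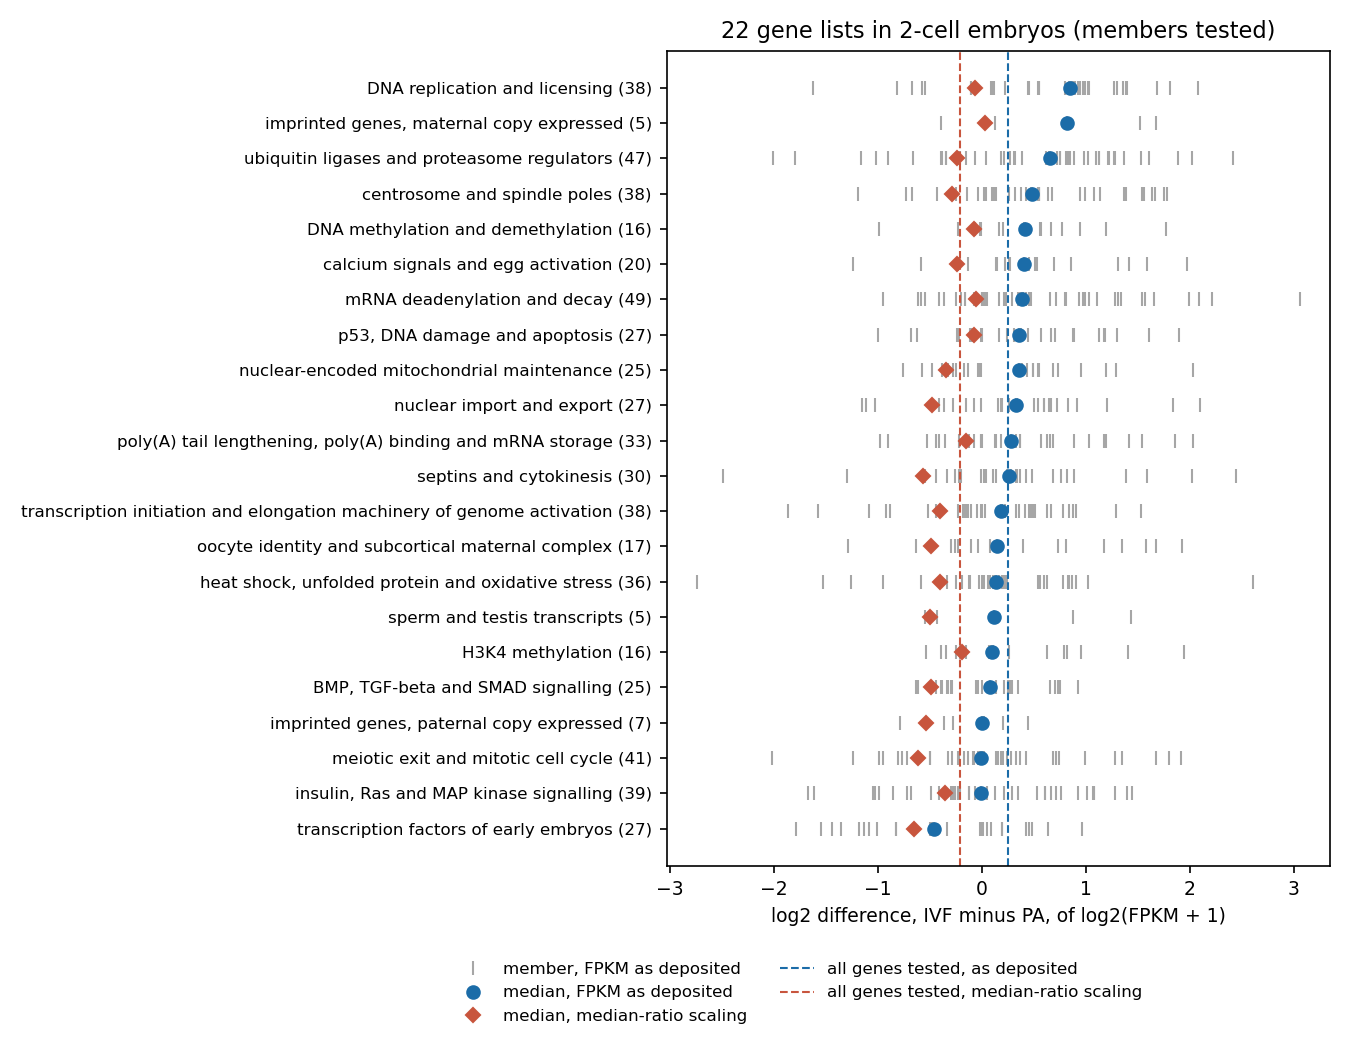
Log2 difference (IVF minus PA) of the members tested in 22 gene lists (grey ticks), with the list median as deposited (blue circles) and under median-ratio scaling (red diamonds), and the medians of all genes tested as dashed lines at 0.25 and −0.20. The medians run from −0.45 for transcription factors to 0.85 for DNA replication, and every red diamond lies left of its blue circle.

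Among oocyte and DNA methylation genes, many of them stored at high levels, most of the abundant members overlapped between the methods. The oocyte list had a median of 0.14, with 1 of 17 members without overlap on the IVF side and 0 on the PA side. That median was −0.49 under median-ratio scaling and 0.68 without PA blastomeres 1-2 and 2-1. BMP15, an oocyte growth factor, was at 134, 142 and 120 FPKM in IVF and at 205, 181 and 113 FPKM in PA, a difference of −0.29 ± 0.48 (limma adjusted p = 1). DNMT1, the maintenance DNA methyltransferase, was at 1324, 1142 and 1091 FPKM in IVF and at 1039.7, 831 and 1254 FPKM in PA, a difference of 0.20 ± 0.38 (limma adjusted p = 1) that turned to −1.03 under median-ratio scaling. UHRF2, which binds hemimethylated DNA, was at 624, 588 and 1016 FPKM in IVF and at 528, 466 and 462 FPKM in PA, without overlap by embryo but with overlap by blastomere, a difference of 0.57 that turned to −0.67 under median-ratio scaling. Under that scaling the median of genes above 300 FPKM was −1.15, below the values of DNMT1 and UHRF2. The DNA methylation list had a median of 0.41, with 2 of 16 members on the IVF side and 1 on the PA side.

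Calcium signals and egg activation had a median of 0.41 (2 of 20 members on the IVF side, 0 on the PA side), p53 and apoptosis genes 0.36 (4 and 1 of 27) and nuclear-encoded mitochondrial maintenance genes 0.36 (2 and 1 of 25). Nuclear import and export had a median of 0.33 (3 and 1 of 27), septins and cytokinesis 0.26 (3 and 1 of 30), the transcription machinery of genome activation 0.19 (5 and 3 of 38), H3K4 methylation 0.10 (4 and 0 of 16) and BMP, TGF-beta and SMAD signalling 0.08 (2 and 1 of 25). Without PA blastomeres 1-2 and 2-1, H3K4 methylation was at 0.42, septins at 0.50, p53 and apoptosis genes at 0.57, centrosome genes at 0.78, BMP signalling at 0.20, mitochondrial maintenance at 0.20 and stress genes at 0.21. Within these lists, the transport receptor XPO5 was at 3.84, 3.54 and 5.29 FPKM in the IVF embryos but at 0.578, 0.0970 and 0.0148 FPKM in the PA embryos, and SEPTIN10 was at 16.3, 12.3 and 13.02 FPKM but at 3.92, 3.05 and 0.00788 FPKM. PINK1, the kinase that marks damaged mitochondria, was at 2.42, 2.11 and 0.555 FPKM but at 0.00334, 0.375 and 0.00289 FPKM, while the DNA double-strand break nuclease MRE11 was at 5.97, 7.49 and 6.78 FPKM but at 0.266, 3.94 and 0.424 FPKM. In all 4 genes the IVF embryos were above the PA embryos, as deposited and in their mean under median-ratio scaling.

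Genes that the study names for this comparison were chosen on these samples, so their directions are no independent evidence. All of them but ENSSSCG00000035376 are also members of the lists above and enter the list counts and medians. The septin SEPTIN11, a filament protein of cytokinesis, was at 673, 357 and 151 FPKM in IVF and at 873, 511 and 1204 FPKM in PA, a difference of −1.29 ± 0.54 (limma adjusted p = 0.877) with overlap. PABPC5, a poly(A) binding protein, was listed at 0 in all IVF blastomeres and was at 0.179, 0.121 and 0.179 FPKM in PA embryos. ENSSSCG00000035376 was at 10.7, 4.49 and 0.418 FPKM in IVF and at 0.0347, 0.0409 and 0.212 FPKM in PA. ZNF449, UBE4A and SMAD5, a mediator of BMP signals, overlapped by embryo, with differences of −1.55, −1.15 and −0.63.

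Detection alone split few genes cleanly. Of the 8116 genes, 3475 were above 0 in all 12 blastomeres, 16 were above 0 in all 6 IVF and listed at 0 in all 6 PA blastomeres, and 9 showed the reverse. Among the 16 were CUL4A, TSLP and TANC2 as well as FAF1, a cofactor of protein extraction for degradation, at 2.12, 2.80 and 14.3 FPKM, the translation factor EEF1G at 0.818, 1.98 and 0.868 FPKM, and the mitochondrial pyruvate carrier subunit MPC1 at 0.309, 12.2 and 0.884 FPKM in the IVF embryos. The 9 on the PA side were lower, with PLEKHD1 and PDCD2L as the only ones with an embryo above 1 FPKM, and IL2RG, at 0.0121, 0.690 and 0.0114 FPKM in the PA embryos, next. At such levels a gene listed at 0 was not detected at this depth, which does not show that it was absent.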

How the data were processed

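Each blastomere was lysed and its RNA, polyadenylated or not, was amplified as cDNA by the authors (Ansuper-seq) and sequenced from both ends on a HiSeq X-Ten. The labels' extraction protocol describes another procedure (Trizol and total RNA libraries), and the procedure in the study's methods was taken as the one used. The genome build was Sscrofa11.1, and the authors used HISAT2 for mapping, StringTie for assembly and HTSeq for counting, and deposited FPKM for 15351 genes in 42 cells. Program versions, the annotation release, strandedness and molecular identifiers are not given in the sources used here. FPKM are scaled within each cell only.

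FPKM were averaged over the sister blastomeres and analysed as log2(FPKM + 1), a scale that understates the differences of low genes. The test was limma (version 3.58.1, R 4.3.3) on the 8116 genes with at least 1 FPKM in at least 3 cells, with all 8 groups in 1 fit and a mean-variance trend. Genes were called at a Benjamini-Hochberg adjusted p below 0.05 and a fold of at least 2. The script was tested on simulated data, with 200 genes changed by known folds, 50 at each log2 change of 1, 2, 3 and 4. It called 0, 6, 12 and 22 of these, and 1 unchanged gene, so most changes of these sizes were missed. Single measures were compared by exact permutation tests (scipy 1.17.1). Whole reads were recovered for 99.8% of 11803 genes above 0 in at least 3 cells, within 0.02 of a read, and served for depth and thinning. PCR reads are not independent molecules, so precision was taken from the spread between embryos. No count model was used.

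Members, lists and tests were chosen with earlier results of these data known. Named genes were the 12 per direction with a symbol and the smallest unadjusted p among genes with separated blastomeres, those the study names, the 10 most abundant nuclear genes, and from each of the 22 lists the 2 members of smallest p and those of at least 100 FPKM. Of these, only picked examples are printed, and they do not represent their lists. Embryo numbers did not pair the samples. Gene positions are those of the deposited table, on Sscrofa11.1, and 3'UTRs and sequences are from RefSeq of that build. Alternatives covered scaling, filters, pseudocounts, the averaging of blastomeres, single embryos left out and the near-repeat libraries, and the analyses of 3'UTR length and of list medians without those libraries were chosen after seeing the data. Stages after the 2-cell stage entered the shared estimate of spread, the filter on low FPKM, the reference of the median-ratio scaling and the search for near repeats. Through that filter, 53 of the genes tested were listed at 0 in all 12 2-cell blastomeres. Some named genes are not reported here.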

Additional observations from a re-analysis of the deposited data

Results flagged for a closer look

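In 16 of 88 groups of 6 blastomeres, for genes named here, the highest cell stood apart from the other 5 by more than Dixon's 95% critical value of 0.625 of the group's range, where chance flags about 1 group in 20. Many of these groups hold several cells near 0, and such values are skewed.

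Among genes of the IVF side, the outlying PA cells were low in absolute terms. They were PA 3-1 for ELP2 (1.43 FPKM) and RAB27B (0.00404 FPKM), PA 2-2 for BTBD9 (1.21 FPKM), PA 3-2 for USP13 (0.528 FPKM) and PA 2-1 for ZNF189 (0.775 FPKM) and RBL1 (1.32 FPKM), and all stayed below every IVF cell. IVF 1-2 stood apart for ZCCHC7 at 44.2 FPKM and IVF 1-1 for RBL1 at 34.4 FPKM.

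On the PA side, PA 3-1 stood apart for NUDT4 at 1411 FPKM. PA 1-2, which nearly repeats a library labelled 4-cell, stood apart for PLEKHD1 at 14.8, PDCD2L at 60.9 and TFAM at 2.48 FPKM. The part of this near repeat in the 3 values was not tested.

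IVF 1-1 held 11615 FPKM of the small nuclear RNA 7SK, a regulator of transcription elongation, and 3860 FPKM of PCNA, and PA 3-2 had the highest PA value of 7SK, 14.02 FPKM. PA 3-1 stood apart for ENSSSCG00000035376 at 0.424 FPKM. IVF 1-1 was also the shallowest of the 12 libraries, with 8166835 recovered reads on genes, and the part of depth was not tested.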

How the results depend on the processing

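Called genes at the 2-cell stage, 0 on each side, came to 1 on the IVF side with a pseudocount of 5 (TRMT2B) and with the mean of log2 values of blastomeres (ELP2), to 17 with blastomeres as units and to 5 without PA blastomeres 1-2 and 2-1. Leaving out 1 embryo gave 0 to 2 on the IVF side (CPO and TM7SF3 without IVF embryo 3) and 0 to 1 on the PA side (ENSSSCG00000035966 without PA embryo 1). For the mean of both stages, 5 and 3 genes (IVF and PA side) were called with no filter on low FPKM, 7 and 3 with the mean of log2 values, 13 and 5 with blastomeres as units, and 0 to 1 on the PA side with 1 embryo left out. For the difference between stages these were 3 and 2, 2 on the IVF side, 8 and 4, and 0 to 1 on the PA side. The numbers shared by embryos did not pair them (correlations −0.002, 0.031 and 0.027), and with them as a replicate block 0 genes were called, with 350 and 73 at an unadjusted p below 0.05.

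Genes without overlap came to 138 on the PA side with the filter set on 2-cell blastomeres, which tests fewer genes. The rest of the 247 PA-side genes passed the main filter only with cells of other stages. The share among the genes tested under that filter is not given here. The counts (IVF and PA side) were 468 and 1082 under median-ratio scaling. They were 1301 to 1759 and 359 to 574 with 1 embryo left out, where fewer embryos separate more easily by construction. The mitochondrial share and genes detected kept their direction with 1 embryo left out and without PA blastomeres 1-2 and 2-1. The separation of profiles kept its direction with another distance, other pseudocounts, median-ratio scaling and the mean of log2 values. It was not run with embryos or the near-repeat libraries left out.

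Among named genes 31 of 2034 recomputed values changed sign, and the cause was not tested. Median-ratio scaling turned DNMT1 to −1.03, BTG4 to −0.90, OOSP2 to −0.82, UBE2D3 to −0.63, ITCH to −0.86, UHRF2 to −0.67, TBPL1 to −0.40 and KPNA7 to −1.02. Medians under that scaling were −1.30 for all genes of 100 to 300 FPKM and −1.15 for those above 300 FPKM. Leaving out PA blastomeres 1-2 and 2-1 turned NLRP9 to 0.084 and SGCE to 0.32. With 1 embryo left out, ranges crossed 0 for ENSSSCG00000000296 (−0.39 to 0.13), PCNA (−0.44 to 0.15), 7SK (−0.88 to 5.05), CDR1 (−0.84 to 0.17), NLRP9 (−0.35 to 0.10), UBE2W (−0.37 to 0.10), ITCH (−0.029 to 0.53), BUB3 (−1.07 to 0.23), WEE2 (−0.63 to 0.00042), ID3 (−1.09 to 0.065), FTL (−0.29 to 0.092), DNAJA1 (−0.26 to 0.0034), ODF2 (−0.87 to 0.45), SGCE (−0.58 to 0.30), KPNA7 (−0.062 to 0.35) and ARMC1 (−0.10 to 0.12).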
